A study of Mus musculus with 110 samples.

Results

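Junctions that join the JH4 bait of the mouse Igh locus to chromosomes other than 12, with the Igk region of chromosome 6 set apart, numbered 8308 among 3602400 deposited junctions, or 0.231% of the total. They were taken as every junction of the 98 full libraries whose prey chromosome was not 12 and whose prey did not lie at chr6:67505630-70676751, which spans Igk. They occupied 6241 distinct positions on 20 chromosomes, and none lay on unplaced or mitochondrial sequence. Being in the set says only where the prey aligned, and the joins fell into kinds that are described separately.

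The series measured V(D)J joining by LAM-HTGTS, in which a primer beside JH4 is extended through the JH4 bait into whatever DNA, the prey, has been joined to it. The cell lines were v-Abl transformed pro-B cells, all RAG2 deficient and carrying Emu-Bcl2, that were nucleofected with RAG2 and given 3 uM STI-571 for 4 days to arrest them and start recombination. Besides the parental cells there was an Ostir1 knock in without a degron, cells with CTCF-mAID-GFP tagging only, CTCFdegron cells, Rad21degron cells and Rad21degron cells with IGCR1 deleted. Each was left without the auxin IAA (NT) or given 500 uM IAA from 6 h before and throughout STI-571, which removes a degron-tagged protein where Ostir1 is present. There were 4 replicates per treatment for the parental, Ostir-only, CTCF-tag-only and IGCR1deleted Rad21degron lines, 6 for CTCFdegron and 3 for Rad21degron. Wild-type 129SV bone marrow gave 6 replicates of pro-B cells sorted from the animal, which carry their own RAG. For 3 of these the protocol field names STI-571, although the sample's own characteristics describe only sorting. The labels do not say whether the replicates of a line were separate cultures or how many clones a line represents, so p-values measure only the spread between these samples.

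V(D)J recombination begins when the RAG enzyme cuts at a recombination signal, a heptamer and a nonamer separated by a spacer, next to a gene segment. The cut leaves a coding end on the segment and a signal end on the heptamer side, and repair joins coding ends after trimming and addition of bases. Segments on other chromosomes, such as those of T cell receptor and light chain loci, carry the same signals, while breaks elsewhere in the genome can be joined to a RAG-cut end as translocations. CTCF and cohesin, of which Rad21 is a subunit, shape the chromatin loops through which RAG scans the Igh locus.

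Sequences at the joins show the kinds of junction in this set. The bait is given first, 5′ to 3′ in the direction of the read, with the last 15 bases before its usual end at the JH4 edge in capitals. It spans chr12:114671041-114671130 of the hybrid genome that the labels name. The next lines are reads of the largest kind. Each was chosen as the first along the genome in its group with 3 bases shared by bait and prey. The shared bases are in capitals, with 25 bases of bait before and 25 of prey after. Coordinates of the prey are mm9.
JH4 bait: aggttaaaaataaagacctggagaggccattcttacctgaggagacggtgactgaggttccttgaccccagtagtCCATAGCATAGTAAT
parental NT, chr1:141239278-141239305, minus strand, intron of Crb1: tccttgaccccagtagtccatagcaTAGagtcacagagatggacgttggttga
CTCFdegron IAA, chr1:4617915-4617942, minus strand, between genes: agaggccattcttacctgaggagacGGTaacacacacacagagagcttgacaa
Rad21degron IAA, chr1:35348372-35348399, plus strand, between genes: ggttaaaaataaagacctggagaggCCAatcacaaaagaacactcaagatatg
Rad21degron IGCR1deleted IAA, chr1:69367311-69367338, plus strand, between genes: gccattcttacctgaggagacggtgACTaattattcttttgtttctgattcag
In the parental read the bait ended 4 bases short of the JH4 edge. In the other 3 reads it ended 41, 61 and 37 bases short, inside the JH4 sequence. Over all junctions of this kind, the bait ended within 15 bases of the edge in 24.1% in parental NT. In the other groups, in the order shown, this was 25.3%, 23.7% and 15.25%, so the parental read is of the less frequent form in its own group.

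Sites of the second kind have a prey with a long run of a single base, or one made almost wholly of C and T or of A and G. The lines below show examples in mm9 from the bins that recurred most, a pair rich in C and T and a pair with runs of C, with 20 bases outside the prey in lower case and the first 40 bases of prey in capitals.
chr4:64808481-64808540, plus strand, intron of Pappa: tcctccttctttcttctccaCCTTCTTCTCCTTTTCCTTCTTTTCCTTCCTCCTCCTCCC
chr1:50655893-50655952, minus strand, between genes: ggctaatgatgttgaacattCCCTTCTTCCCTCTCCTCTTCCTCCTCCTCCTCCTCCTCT
chr6:91777048-91777107, plus strand, exon of Grip2: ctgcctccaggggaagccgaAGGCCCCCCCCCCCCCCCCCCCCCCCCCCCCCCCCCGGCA
chr10:122303727-122303786, minus strand, intron of Ppm1h: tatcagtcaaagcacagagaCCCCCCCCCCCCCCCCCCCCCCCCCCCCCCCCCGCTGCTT

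Sites of the third kind lie in receptor loci or at 2 further recurrent sites, and those shown carry a recombination signal. Each line gives the 20 bases of mm9 on the coding side in lower case, then the heptamer in capitals, the spacer, and the nonamer in capitals, read in the direction of the heptamer.
Trav15-1-dv6-1, chr14:54179903-54179961, plus strand: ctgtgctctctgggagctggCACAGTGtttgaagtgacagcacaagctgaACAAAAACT
Trdd1, chr14:54733115-54733162, minus strand: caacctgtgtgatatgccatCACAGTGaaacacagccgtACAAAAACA
VH-like site near Gm4242, chr19:61308286-61308343, minus strand: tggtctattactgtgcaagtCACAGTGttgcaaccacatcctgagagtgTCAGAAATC
site past Igkc, chr6:70701736-70701794, minus strand: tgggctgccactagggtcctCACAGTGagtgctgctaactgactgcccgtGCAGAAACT
Iglv1, chr16:19085071-19085129, minus strand: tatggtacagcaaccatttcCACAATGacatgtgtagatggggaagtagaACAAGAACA
site near Iglc3, chr16:19063336-19063383, plus strand: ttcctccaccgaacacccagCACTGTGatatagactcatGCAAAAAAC
The spacer has 23 bases at Trav15-1-dv6-1, Iglv1 and the site past Igkc, 22 at the VH-like site, and 12 at Trdd1 and the site near Iglc3. The heptamer matched CACAGTG at all 7 positions in 4 of these sites and at 6 of 7 in the Igl pair.

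Sites of the fourth kind start with a stretch of the bait itself. Below, 20 bases of mm9 before the prey are in lower case, and the prey bases that the read shares with the bait are in capitals.
chr15:89237744-89237823, minus strand, intron of Syce3: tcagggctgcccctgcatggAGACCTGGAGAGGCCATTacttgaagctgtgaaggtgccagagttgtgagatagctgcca
chr5:131318475-131318554, plus strand, near Caln1: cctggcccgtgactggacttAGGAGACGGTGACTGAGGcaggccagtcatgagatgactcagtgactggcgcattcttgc

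Dispersed junctions, those with none of the features of the other kinds, made up 5851 junctions or 70.4% of the set. Low-complexity prey made up 1964 or 23.6%, of which 1063 had a run of at least 12 C, 455 were at least 90% A and G, and 376 were at least 90% C and T. A further 277 junctions overlapped the bait by 10 or more bases, and 216 lay in the windows of receptor loci or at the VH-like and Igkc-side sites. These kinds were defined after the data had been seen, in that order of exclusion: low complexity, receptor-type, bait overlap, dispersed. The median prey of a dispersed junction was 143 bases long, against 36 bases for low-complexity prey. The first 25 prey bases matched mm9 with a median identity of 100%, and 98.5% of dispersed junctions had an identity of at least 90%.

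The share of junctions on other chromosomes was highest in the IAA groups of both Rad21degron lines. In Rad21degron NT the 3 replicates had 0.157%, 0.187% and 0.189% of their junctions there. With IAA they had 22.5%, 9.55% and 12.7%. All 3 treated replicates lay above all 3 untreated ones, with means of 14.9% ± 6.76 (SD, n = 3) and 0.178% ± 0.0179 (SD, n = 3). The exact two-sided permutation test gave p = 0.1, the smallest that 3 against 3 allows, and an adjusted p of 0.771 over the 33 tests. Each replicate number was a sequencing run of its own that held both treatments, and with the number as a block the exact sign-flip permutation p was 0.25, the smallest 3 pairs allow (adjusted p 0.606). Counting identical junctions of a library once gave 55.0% ± 11.9 against 4.41% ± 0.491 (SD, n = 3 each), again without overlap. Identical junctions are those with the same prey chromosome, position and strand, so separate joins to the same base are also counted as 1.

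In the IGCR1deleted Rad21degron line, which lacks the CTCF-bound control region between D and VH segments, the untreated replicates had 0.178%, 0.326%, 0.957% and 0.346%. With IAA they had 6.93%, 7.84%, 12.5% and 12.1%. The groups did not overlap, at 9.84% ± 2.86 (SD, n = 4) against 0.452% ± 0.345 (SD, n = 4), with an exact permutation p of 0.0286, the smallest 4 against 4 allows, and an adjusted p of 0.471. Counting identical junctions once gave 48.9% ± 4.74 against 5.79% ± 2.11 (SD, n = 4 each), also without overlap.

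The CTCFdegron line differed by less. Untreated replicates ran from 0.0710% through a median of 0.199% to 0.232%, and IAA replicates from 0.327% through 0.640% to 0.887%. The groups did not overlap, at 0.591% ± 0.207 (SD, n = 6) against 0.177% ± 0.0654 (SD, n = 6), a ratio of 3.34. The exact permutation p was 0.00216, the smallest 6 against 6 allows, and the adjusted p was 0.0714, above the threshold of 0.05. Counted once per identical junction, the shares were 6.07% ± 1.64 and 3.94% ± 1.34 (SD, n = 6 each), and the groups overlapped, with an exact permutation p of 0.0390 and an adjusted p of 0.429. Since this count also merges separate joins to the same base, it does not single out copies of a molecule.

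The control lines showed no such separation. Means with and without IAA were 0.156% and 0.147% for parental cells, 0.236% and 0.130% for Ostir-only cells, and 0.179% and 0.155% for CTCF-tag-only cells, with 4 replicates per group and overlapping values in each. Exact permutation p was 0.8, 0.314 and 0.457. Bone marrow pro-B cells had 0.101% ± 0.0435 (SD, n = 6) against 0.147% ± 0.0369 (SD, n = 4) in untreated parental cells, and these also overlapped. Bone marrow libraries came from 2 sequencing runs that held no other group, so run and cell source cannot be told apart in any comparison with them. Of all 33 tests of the 3 shares tested here, 2 had an unadjusted p under 0.05 and 0 had an adjusted p under 0.05. The smallest exact permutation p that any of these groups allows is 0.00216. Standing alone among 33 tests it gives an adjusted p of 0.0714, so no single test could pass by itself.

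**Figure D1:**
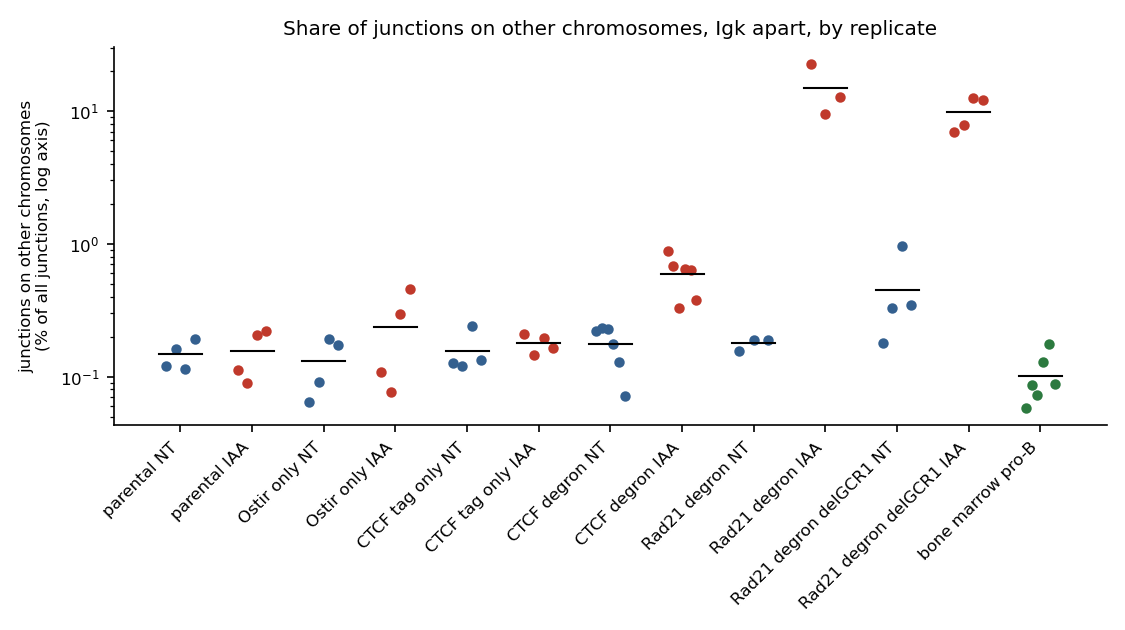
Share of junctions on other chromosomes, Igk apart, as % of all junctions of a replicate on a log axis. Points are replicates, bars are group means, red marks IAA, blue marks NT and green marks bone marrow. The 3 treated Rad21degron replicates sit between 9.55% and 22.5%, and the 3 untreated ones between 0.157% and 0.189%.

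The size of the IAA effect was also compared between lines, a comparison added after the data had been seen. The log2 ratio of IAA to NT shares over same-numbered replicates averaged 6.30 (n = 3) in Rad21degron, 4.68 (n = 4) in its IGCR1deleted form and 1.77 (n = 6) in CTCFdegron. It averaged 0.02 for parental, 0.64 for Ostir-only and 0.25 for CTCF-tag-only cells, with n = 4 in each. Exact permutation of the line labels gave adjusted p-values between 0.0312 and 0.0476 for the 12 pairs of lines that hold a degron line. Pairs of control lines were not compared, and the adjustment covers these 12 pairs only. Within them each degron line differed from each control line and from the other degron lines. CTCFdegron against Ostir-only was nearest the threshold, with an unadjusted p of 0.0476 by exact permutation. With identical junctions counted once, 8 of the 12 pairs kept an adjusted p under 0.05. Those lost were CTCFdegron against each control line, with adjusted p-values of 0.405, 0.805 and 0.405, and Rad21degron against its IGCR1deleted form, at 0.343. Same-numbered NT and IAA replicates were in the same run in every line except the parental one, where this held for 2 of 4 numbers. Within that run the parental share averaged 0.212% with IAA and 0.153% without (n = 2 each). The Ostir-only shares were 0.0924% and 0.0774% in one run and 0.379% and 0.182% in the other, with n = 2 for each mean.

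The totals behind these shares differ, and the shares move with them. Rad21degron IAA replicates held 1263 to 2492 junctions in all, against 25046 to 46510 without IAA, and the IGCR1deleted line held 1608 to 2668 against 5329 to 15327. Fewer joins within Igh and more joins elsewhere cannot be told apart by a share, and the reads before junction calling were not analysed here. Rad21degron libraries held 121 to 413 junctions on other chromosomes per replicate with IAA and 47 to 79 without. Such numbers also depend on the reads that went into junction calling, so they cannot tell fewer joins within Igh from more joins elsewhere either. Each sequencing run that held a degron line held both its treatments. Within the 3 runs that held Rad21degron, the share was higher with IAA by 22.4, 9.36 and 12.5 percentage points, each with 1 replicate per group.

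The kinds of junction differed in how their numbers compared. Dispersed junctions numbered 727 in Rad21degron IAA and 62 in NT, while low-complexity junctions numbered 96 and 126. In the IGCR1deleted line the dispersed numbers were 649 and 58, and the low-complexity numbers 127 and 110. In CTCFdegron they were 875 and 299 for dispersed and 103 and 97 for low complexity. Dispersed junctions per low-complexity junction were therefore 7.57 against 0.492, 5.11 against 0.527 and 8.49 against 3.08. In parental, Ostir-only and CTCF-tag-only cells this ratio was 3.50 against 2.48, 3.11 against 2.20 and 3 against 2.63. The untreated forms of both Rad21degron lines were thus below the other untreated cell line groups, although untreated parental replicates ran from 0.235 to 3.44. Whether low-complexity joins vary with joining in Igh or with depth was not tested. Across replicates of Rad21degron the ratio ran from 6.95 to 8.07 with IAA and from 0.233 to 1.25 without. In the IGCR1deleted line it ran from 2.37 to 10.3 against 0.0851 to 1.14. In CTCFdegron it ran from 5.24 to 12.2 against 0.762 to 8.40, where the ranges overlap.

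As a share of all junctions, dispersed joins were 12.8% ± 6.37 (SD, n = 3) against 0.0609% ± 0.0347 (SD, n = 3) in Rad21degron, and 0.514% ± 0.199 (SD, n = 6) against 0.125% ± 0.0554 (SD, n = 6) in CTCFdegron. Neither pair of groups overlapped. Low-complexity shares were also higher in Rad21degron IAA than NT, at 1.68% ± 0.740 against 0.107% ± 0.0325 (SD, n = 3), without overlap. In CTCFdegron they overlapped, at 0.0587% ± 0.0114 and 0.0410% ± 0.0179 (SD, n = 6). Bone marrow stood at the other end. It had 39 dispersed junctions among 354425, and its 6 replicates ran from 0.00503% through 0.00973% to 0.0189%. All were below the 4 untreated parental replicates at 0.0227%, 0.0538%, 0.0710% and 0.138%. These parental values rest on 4, 8, 164 and 310 junctions, and the bone marrow values on 3 to 17 each. Low-complexity joins in bone marrow made up 0.0663% ± 0.0339 (SD, n = 6), against 0.0674% ± 0.0364 (SD, n = 4) in the untreated parental line.

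**Figure D2:**
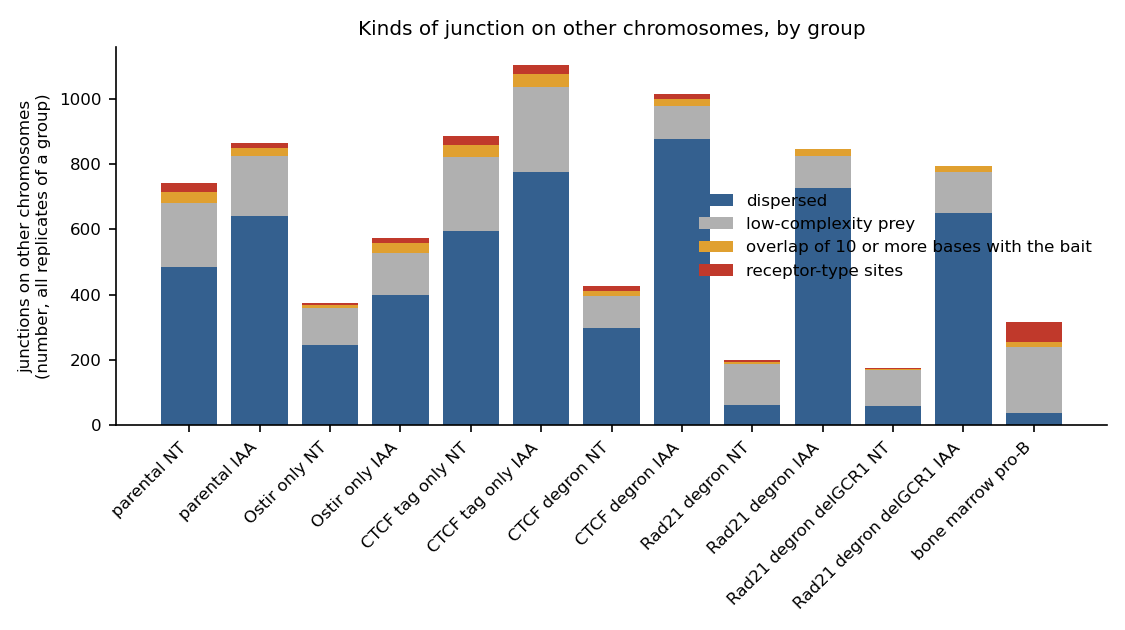
Number of junctions on other chromosomes in each group, all replicates together, divided into the 4 kinds. Dispersed junctions (blue) make up 727 of 845 in Rad21degron IAA, 62 of 199 in Rad21degron NT and 39 of 316 in bone marrow, while low-complexity junctions (grey) number 96, 126 and 201.

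Dispersed junctions were not built like the joins within chromosome 12. Bait and prey shared 1 or more bases at the join in 76.1% ± 24.1 of dispersed junctions (SD over 56 replicates), against 15.3% ± 11.01 of chromosome 12 junctions in the same replicates. The share was higher for dispersed junctions in 53 of 56 replicates, with a mean difference of 60.8 percentage points and a permutation p of 1e-05 by sign flips, the smallest that 100000 resamples can give, and an adjusted p of 1.87e-05 over 28 such tests. Inserted bases, which lie between bait and prey and match neither, were found in 15.7% ± 22.3 of dispersed junctions and in 75.5% ± 15.0 of chromosome 12 junctions, with the same p. The most frequent overlap in dispersed junctions was 3 bases, in 18.6% of them. Since dispersed junctions exclude overlaps of 10 or more bases by definition, longer overlaps are not in this share.

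The place where the bait stopped differed as well, a measure added after the data had been seen. On chromosome 12 the bait ended within 15 bases of the JH4 edge, where RAG cuts, in 97.1% of 3589391 junctions. Among receptor-type junctions it did so in 90.3% of 216. Among dispersed junctions it did so in only 23.2% of 5851, and among low-complexity junctions in 23.1% of 1964. Per replicate the share was 29.1% ± 18.5 for dispersed junctions against 97.0% ± 1.06 for chromosome 12 (SD, n = 56 replicates), lower in 54 of them, and the sign-flip permutation p was 1e-05. The rest of the dispersed joins left the bait throughout the JH4 sequence, with a median distance of 45 bases from the edge.

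**Figure D3:**
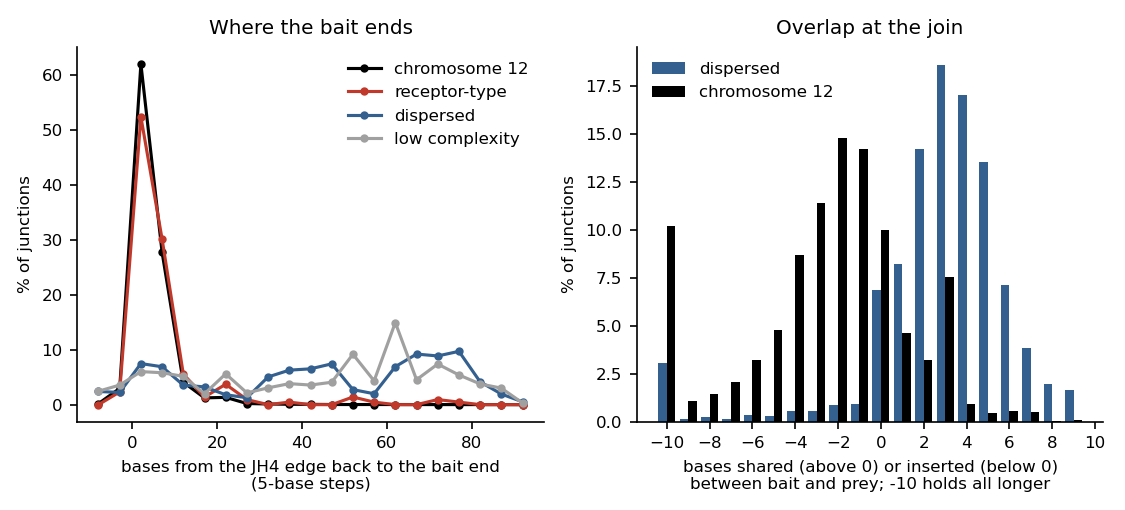
Left, distance in bases from the JH4 edge back to the last bait base, in steps of 5 bases, as % of the junctions of each kind. Right, bases shared (above 0) or inserted (below 0) between bait and prey, as % of dispersed and of chromosome 12 junctions, with all insertions of 10 or more at the left end. Chromosome 12 and receptor-type junctions peak at the edge with 61.9% and 52.3% in the step from 0 to 4 bases, where dispersed junctions have 7.47%.

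In every cell line group, treated or not, most dispersed junctions had this structure. The mean share of dispersed junctions with the bait ending near the edge lay between 15.4% in IGCR1deleted Rad21degron IAA and 29.8% in the same line without IAA. The mean share with overlap lay between 65.0% and 90.5%. In Rad21degron IAA these were 23.3% ± 3.15 and 90.5% ± 2.71 (SD, n = 3). Bone marrow differed: 24 of its 39 dispersed junctions, or 61.5%, had the bait near the edge, 25.6% had overlap, and the median join had 3 inserted bases. With 39 junctions, 3 to 17 per replicate, the spread was wide, at 64.8% ± 37.7 (SD, n = 6) for the edge.

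Counting only junctions with the bait near the JH4 edge left the 3 degron comparisons in the same direction. Their share was 3.43% ± 1.75 (SD, n = 3) in Rad21degron IAA against 0.0437% ± 0.00722 (SD, n = 3) in NT, and 1.51% ± 0.267 against 0.106% ± 0.0803 in the IGCR1deleted line (SD, n = 4 each). In CTCFdegron it was 0.150% ± 0.0490 against 0.0453% ± 0.0197 (SD, n = 6 each). The first 2 pairs, and the CTCFdegron pair with a lowest treated value of 0.0942% and a highest untreated value of 0.0689%, did not overlap. Exact permutation p was 0.1, 0.0286 and 0.00216, and the adjusted p 0.541, 0.471 and 0.0714.

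Over the chromosomes, dispersed junctions followed length. Their density on the 18 autosomes other than 12 ran from 2.23 per Mb on chromosome 13 to 2.83 per Mb on chromosome 3, a ratio of 1.27. Their number correlated with chromosome length at r = 0.958 over these 18 chromosomes, a description across chromosomes that share all libraries. Chromosome X had 1.22 per Mb, 0.491 times the autosomal density of 2.48. The density on X was below that of the autosomes in each of the 13 groups, with ratios of 0.638 or less, though untreated Rad21degron and bone marrow had 1 such junction on X each and the untreated IGCR1deleted line had 0. Chromosome Y had 15 dispersed junctions over 2702555 called bases, or 5.55 per Mb.

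**Figure D4:**
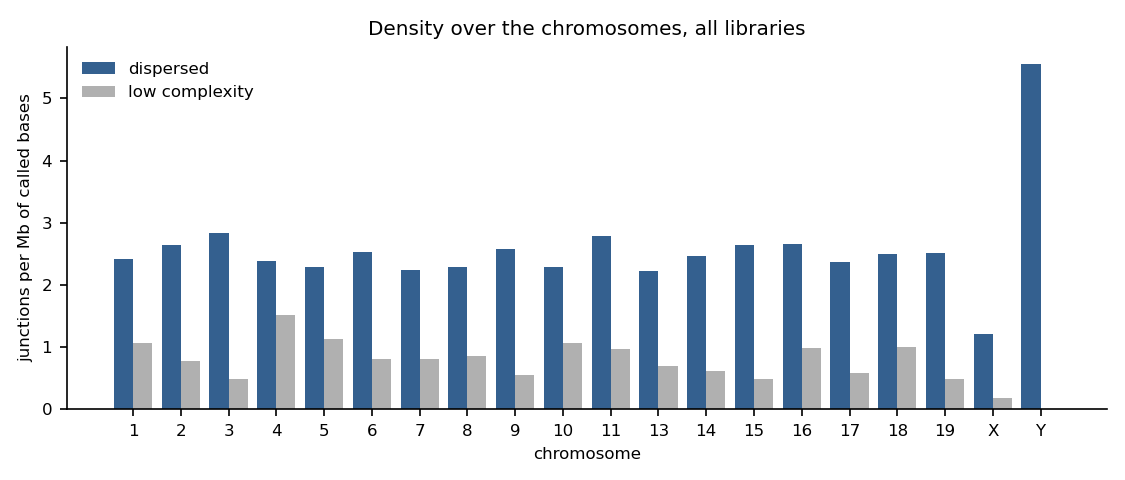
Junctions per Mb of called bases on each chromosome, all libraries together, for dispersed (blue) and low-complexity (grey) junctions. Dispersed density lies between 2.23 and 2.83 on every autosome shown and at 1.22 on X, while low-complexity density runs from 0.478 on chromosome 15 to 1.52 on chromosome 4 among autosomes and is 0.185 on X.

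The division over chromosomes was tested with limma on the number of junctions per chromosome relative to the replicate's junctions on other chromosomes. In each of the 3 degron comparisons of IAA with NT, 0 chromosomes passed a Benjamini-Hochberg adjusted p of 0.05, a called share of 0% of the 18 or 19 tested, and 1 had an unadjusted p under 0.05. Other settings gave calls by limma in these comparisons. With the replicate number, which is the run, as a block, chromosome 1 was lower in Rad21degron IAA, with a log2 difference of -1.02 and an adjusted p of 0.0242. With dispersed junctions only, chromosomes 8 and 11 were lower in the IGCR1deleted line with IAA, with log2 differences of -1.77 and -1.13 and adjusted p-values of 0.0419 and 0.0238. Without NT replicate 1 of Rad21degron 1 chromosome was called, with an adjusted p of 0.0156. The 3 control lines likewise had 0 calls (0%), with 0, 1 and 2 chromosomes at an unadjusted p under 0.05. In bone marrow against untreated parental cells 1 of 18 chromosomes, or 5.56%, passed. This was chromosome 3, lower in bone marrow by 2.22 on the log2 scale with an adjusted p of 0.00961 by limma. That call was lost without bone marrow replicate 6 (lowest adjusted p 0.148), without parental replicate 2 (0.0591) or replicate 3 (0.177), and with dispersed junctions only (0.161).

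Orientation did not differ detectably between groups. Over all 8308 junctions 52.3% read in the plus direction, and group means lay between 47.9% in Ostir-only NT and 59.2% in bone marrow. None of the 11 comparisons passed the test, with adjusted p-values by exact permutation from 0.771 upward. Dispersed junctions alone were 50.8% plus. Low-complexity junctions were 55.8% plus and receptor-type junctions 66.2%. By chromosome the share ran from 39.9% on chromosome 1 to 62.9% on chromosome 4 and 67.9% on chromosome 19 among autosomes. Single sites weigh on these values. One position gave 79 minus-strand junctions of the 685 on chromosome 1, and another gave 131 plus-strand junctions of the 623 on chromosome 4. The VH-like site gave 62 plus-strand junctions of the 243 on chromosome 19.

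Dispersed positions seldom recurred. Of 4801 distinct positions, 4796 or 99.9% were seen in 1 replicate only, and 5 in 2 or more. Of 4296 windows of 100000 bases with a dispersed junction, 90.1% had them in 1 replicate and 35 had them in 3 or more. With 1-Mb bins, 1060 of the 2197 bins that held any junction did so in 3 or more replicates, out of 2543 bins in all. The number falls to 726 with dispersed junctions only and to 697 with 500-kb bins. The 1-Mb bins with junctions held a median of 3, and the number of recurrent bins that even scatter would give was not computed. The bins that recur most are named here, and they were chosen by these same junctions.

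The 10 bins seen in most replicates held 8 whose most frequent position had low-complexity prey and 2 with a recombination signal. The first was chr4:64000001-65000000, with 137 junctions in 31 of 56 replicates and 10 groups. Of these, 131 began at exactly 64808501 on the plus strand, the C- and T-rich stretch in an intron of Pappa shown above. They came from bone marrow (34), parental NT (20), both CTCF-tag-only groups (19 each) and 6 others, with a median prey of 28 bases and 16 inserted bases before it. The bin of chromosome 1 from 50000001 behaved alike, with 79 of its 82 junctions at 1 position on the minus strand in 19 replicates. Bins with runs of C were those at chr5:104501339, chr6:91777068 in an exon of Grip2, chr5:137458654 in an intron of Znhit1, chr4:53352862, chr1:159015056 and chr10:122303766 in an intron of Ppm1h. Each held 25 to 38 junctions in 18 to 28 replicates. Over the whole set, 100 of 1178 low-complexity positions were seen in 3 or more replicates.

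Preys that begin with bait sequence recurred too. The Syce3 position shown above was found 8 times in 6 replicates with 18 bases shared with the bait, and the one near Caln1 6 times in 5 replicates with 18. In all, 7 of 194 such positions occurred in 3 or more replicates. Their baits ended a median of 58 bases before the JH4 edge.

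Of the 41 1-Mb bins seen in 10 or more replicates, the most frequent position was low complexity in 31 and receptor-type in 4. It was dispersed in 4 and had bait overlap in 2. Receptor-type sites were thus among those that recurred. Of 23 such sites, 8 had a heptamer matching at all 7 positions, 8 at 6, 3 at 4 or 5, and 4 had none found. A CACAGTG or CACTGTG heptamer lay within 20 bases of the junction in 68.5% of 73 distinct receptor-type positions, and in 56.3% of the 48 that lay in the 4 receptor loci. Neighbouring positions share a heptamer, and the sites outside those loci were chosen for their junctions, so these shares are a description. The same was true of 1.27% of 4801 dispersed positions, 0.255% of 1178 low-complexity positions, and 0.881% of 61025677 windows of the same 40 bases laid end to end over these chromosomes. Bases were inserted in 80.4% ± 26.9 of receptor-type junctions, against 77.3% ± 13.96 on chromosome 12 in the same 27 replicates, those with 3 or more such junctions (SD). The sign-flip permutation p was 0.448, with a mean difference of 3.10 percentage points. Other measures differed in the same replicates. The median overlap was -8.63 bases, that is an insertion, against -2.59 on chromosome 12, with an adjusted p of 0.00014 by permutation. The bait ended near the edge in 87.3% ± 20.2 against 96.9% ± 0.970 (SD), with an adjusted p of 0.0178.

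At the T cell receptor alpha and delta locus there were 88 junctions in 28 replicates of 9 groups. Trav15-1-dv6-1, a variable segment used in both alpha and delta chains and annotated as Gm16591 in the mm9 gene set, took 57 of them in 23 replicates. There 31 junctions ran away from the heptamer into the coding side and 26 ran into the signal, so both ends of the cut were joined to JH4. They lay from 54179916 to 54179928, within 7 bases of the heptamer's first base. Similar copies of this segment exist in the locus, so its reads could be divided among them by the alignment. Trdd1, a delta diversity segment, took 17 junctions, all on the coding side, of which 16 came from bone marrow in 4 replicates and 15 began at the same base. Identical junctions may be copies of 1 molecule, and at Trdd1 only 5 of the 17 were distinct. A further 7 identical junctions at 54180978, beyond Trav15-1-dv6-1, all came from 1 bone marrow replicate.

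Bone marrow had the most junctions at this locus, at 0.0114% ± 0.00934 (SD, n = 6) of all junctions with the replicates at 0 to 0.0233%. Untreated parental cells had 0.00245% ± 0.00299 (SD, n = 4). For Tcra/Tcrd, Tcrb, Tcrg and Igl together the shares were 0.0114% and 0.00278%, with overlapping replicates, an exact permutation p of 0.133 and an adjusted p of 0.771. Counting identical junctions once turned the sign of this difference, to -0.00302 percentage points. Tcrb had 0 junctions in any library, which allows a share of at most 3 junctions per group total, 0.0539% in Rad21degron IAA and 0.000482% in CTCF-tag-only IAA. Tcrg had 4 junctions, of which 2 were at Trgj2 in CTCFdegron IAA with a fully matching heptamer.

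The lambda light chain locus Igl on chromosome 16 had 32 junctions in 15 replicates of 8 groups. They lay at the variable segments Iglv1 (6 junctions), Iglv2 (2) and Iglv3 (3), beside Iglc2 (4), and at 2 signals in or near Iglc3 (7 and 5), with the other 5 at 3 further positions. None came from CTCFdegron IAA, bone marrow, Rad21degron NT or IAA, or the IGCR1deleted line with IAA. The limit for 3 junctions was 0.00167% in CTCFdegron IAA and 0.000846% in bone marrow. Untreated IGCR1deleted Rad21degron cells had 3 in 3 of 4 replicates.

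The site at chr6:70701768 lay 25.02 kb past Igkc, just outside the excluded Igk region. It took 30 junctions in 10 replicates of 7 groups, 13 on the coding side and 17 on the signal side. A kappa-deleting element is known to lie downstream of Igkc, but the annotation used here names none at this position, and the nearest gene was Rpia. Untreated parental replicates held 0, 0, 5 and 8 of these junctions, and bone marrow held 0, which allows up to 0.000846%.

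The VH-like site on chromosome 19 took 62 junctions in 23 replicates of 8 groups, all in the plus direction and on the coding side, between 61308324 and 61308336. It lay 361 bases from Gm4242, annotated as an immunoglobulin variable segment outside Igh. Bone marrow gave 32 of them, with 7, 6, 13, 3, 0 and 3 in its 6 replicates, and CTCFdegron IAA gave 10. Of 43 preys with at least 50 bases, 20 matched the chromosome 19 site better and 22 matched the Igh locus of mm9 better, and only 1 had 98% or more identity to the chromosome 19 site. In the cell lines 13 of 19 were closer to Igh, with median identities of 98.02% there and 95.1% on chromosome 19. In bone marrow 14 of 24 were closer to chromosome 19, with medians of 94.9% there and 49.0% in Igh. Because the Igh sequence of the hybrid genome was not used here, whether a VH segment of that sequence gave these reads was not tested.

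Taking all receptor-type sites together, bone marrow had 62 junctions, 7 to 14 in each replicate, or 0.0191% ± 0.00628 (SD, n = 6). Untreated parental replicates had 0, 1, 11 and 14, or 0.00443% ± 0.00307 (SD, n = 4), and the groups did not overlap. Of the bone marrow junctions, 32 lay at the VH-like site, where some preys matched Igh better. The other 30 lay at Tcra/Tcrd, where some were identical. At Tcra/Tcrd alone the replicates overlapped, at 0 to 0.0233% in bone marrow and 0 to 0.00673% in parental cells. The receptor-type sites include 2 chosen for their own junctions, so no test is given. The IAA groups of both Rad21degron lines had 0, and their totals allow a share of up to 0.0539% and 0.0356%, above the 0.00529% and 0.00617% of their untreated forms, so a difference was not detectable at this depth.

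Genes with a known role in lymphoid translocations or off-target RAG cutting held few junctions. The 3 lists below were examined within 10000 bases of each gene, with low-complexity prey left out. The genes altered or supplied in these cells (Rag1, Rag2, Bcl2, Abl1, Ctcf, Rad21 and the Rosa26 locus) held 1 junction, or 1.92 per Mb, which lay in the overlapping windows of Rag1 and Rag2. The 13 known targets of off-target RAG cutting that lie off chromosome 12 held 3 junctions, or 1.71 per Mb, 1 each at Ebf1 and Pax5, factors of B cell identity, and at Erg. The 12 translocation partners held 6, or 8.85 per Mb, with 3 at Pim1, a kinase gene, and 1 each at Pvt1, Bcl6 and Il4ra. Myc, Ikzf1, Cdkn2a and Notch1 had 0. The density over all these chromosomes was 2.60 per Mb, below that of the translocation partners and above those of the other lists. With 1 to 6 junctions per list, these differences were not tested.

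Dispersed junctions were also set against gene positions. Of 4801 distinct positions 42.4% lay in genes, 4.29% in exons and 5.94% within 2000 bases of a gene start, where 41.5%, 3.45% and 5.30% of bases lie. Among 31 replicates with at least 50 positions, 19 were above the genome's share near gene starts and 16 above its share in genes. In CTCFdegron IAA 6.39% of 798 positions lay near a start, in Rad21degron IAA 6.20% of 661 and in its IGCR1deleted form 6.73% of 505. In exons the shares of these IAA groups were 5.01%, 5.60% and 4.75%, and those of their untreated forms 4.30% of 279, 5% of 60 and 8% of 50. These differences were not tested. The heptamer share of dispersed positions was 1.88% in CTCFdegron IAA, 1.21% in Rad21degron IAA and 0.792% in the IGCR1deleted form with IAA, which are 15, 8 and 4 positions beside the genome's 0.881%. In their untreated forms it was 2.51%, 1.67% and 2%, which are 7, 1 and 1 positions.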

How the data were processed

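The authors deposited 1 line per junction read, with prey position, strand, alignment bounds and sequence, and no counts column. Reads were aligned to a hybrid of mm9 and another Igh sequence per the labels, with Bowtie2 named per the submitters' processing notes; its version and the filters are not given in the sources used here. The 12 off-target lists were not used. The mm9 genome and its GENCODE annotation served for positions off chromosome 12, and RefSeq tables for updated symbols.

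Shares are % of all junctions of a replicate; a and b libraries were averaged for the share on other chromosomes and summed otherwise. Two-sided exact permutation tests over replicates were adjusted by Benjamini-Hochberg over 33 tests (3 shares, 11 comparisons). Sign-flip tests used 100000 resamples. limma 3.58.1 in R 4.3.3 (voom weights) tested numbers of junctions per chromosome with a mean of at least 3. On simulated data for the CTCFdegron comparison with 19 chromosomes it recovered 100% of log2 changes of 2 and called 2.35% of unchanged chromosomes. The simulated numbers carried counting error only, with no further spread between replicates. The largest absolute log2 difference observed in that comparison was 0.988, and changes of that size were not simulated. Fits on 1-Mb bins were not made, because at most 4 bins reached a mean of 3 in any comparison. The planned comparison of CAC or GTG beside the junction with chromosome 12 was not made, since the hybrid Igh sequence was not used here. Preys were matched with blastn 2.17.0.

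Replicates held 1263 to 231023 junctions, from 11 sequencing runs. Limits from 3 junctions cover counting error only. In 4 libraries whose titles say IAA, the treatment field leaves it out; they were grouped by title. Sites named are the 10 recurrent bins in most replicates and any fixed-list gene or receptor locus with junctions; other sites were named after their values were seen. The set and the lists were chosen with earlier results of these data known. Some items are not reported here.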

Additional observations from a re-analysis of the deposited data

Results flagged for a closer look

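Among 32 groups of 4 to 6 replicates examined over the 3 shares, 6 held 1 replicate far from the others by Dixon's criterion, which chance flags in about 1 of 20. CTCF-tag-only NT replicate 3 had 0.238% of its junctions on other chromosomes. The plus-strand share was 45.4% in CTCF-tag-only IAA replicate 4, 60% in CTCFdegron IAA replicate 3 and 33.3% in IGCR1deleted Rad21degron NT replicate 1. The share at receptor loci was 0.00728% in Ostir-only NT replicate 2 and 0 in IGCR1deleted Rad21degron NT replicate 3, whose total was the lowest of its group. The replicates of these groups held 0, 4, 1 and 0 such junctions and 1, 1, 0 and 1. Whether the rate of about 1 of 20 holds for such small numbers was not tested.

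The effect of IAA on the share of junctions on other chromosomes differed between lines by exact permutation of log2 ratios. Adjusted p-values lay between 0.0312 and 0.0476 over the 12 pairs that hold a degron line, and pairs of control lines were not compared. The Rad21degron effect exceeded that of the parental line by 6.29, of the Ostir-only line by 5.66 and of the CTCF-tag-only line by 6.05 on the log2 scale. For the IGCR1deleted Rad21degron line these differences were 4.66, 4.04 and 4.42, and for CTCFdegron 1.75, 1.13 and 1.52. Rad21degron exceeded its IGCR1deleted form by 1.63 and CTCFdegron by 4.54, and the IGCR1deleted form exceeded CTCFdegron by 2.91. The total number of junctions, which is lower in the IAA groups of the degron lines, moves with these ratios, and its part in them was not tested. With identical junctions counted once, 8 of the 12 differences had an adjusted p under 0.05, and those of CTCFdegron from the control lines were 0.35, 0.09 and 0.38, with adjusted p-values of 0.405, 0.805 and 0.405 by exact permutation.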

How the results depend on the processing

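The shares were recomputed in 430 ways, of which 276 left out 1 replicate; 388 kept their direction, 42 did not, and 0 had an adjusted p under 0.05 by exact permutation. None of 56 alternatives turned the direction of the 3 degron comparisons of the share on other chromosomes. In percentage points, counting identical junctions once turned CTCFdegron NT against parental NT to -1.46, Rad21degron NT against parental NT to -0.988, the plus-strand difference of the IGCR1deleted line to 0.0145 and bone marrow against parental NT at receptor loci to -0.00302. Rad21degron NT against parental NT was also -0.0243 with preys of at least 50 bases, -0.00904 without low-complexity prey and -0.0106 with dispersed junctions only. Leaving out duplicate-marked lines turned bone marrow against parental NT to 0.109. The cause of these turns was not tested.

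Leaving out 1 replicate at a time, the share difference ran from -0.0114 to 0.0316 for parental IAA against NT and from -0.0201 to 0.0228 for CTCF-tag-only NT against parental NT. The plus-strand difference ran from -0.392 to 7.78 for Rad21degron, -6.76 to 4.94 for its IGCR1deleted form, -3.53 to 0.646 for CTCFdegron, -1.40 to 1.53 for parental and -3.17 to 0.673 for CTCF-tag-only cells, each IAA against NT. Against parental NT it ran from -0.982 to 3.19 for CTCFdegron NT and -4.12 to 4.06 for Rad21degron NT, and from -1.13 to 10.1 between the untreated IGCR1deleted and Rad21degron lines. The receptor-locus difference ran from -0.00156 to 0.000685 for parental IAA against NT, -0.000933 to 0.00131 for CTCFdegron NT against parental NT and -0.00158 to 0.000767 for Rad21degron NT against parental NT.

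In no comparison did every pair of same-numbered samples correlate above 0.1, although in Rad21degron each number was 1 sequencing run shared by NT and IAA. With the replicate number as a block, the plus-strand difference from parental NT was -3.46 for CTCFdegron NT and 0.869 for Rad21degron NT, and limma called 1 chromosome for Rad21degron and 2 for bone marrow. Other counts of chromosomes called by limma that moved were 2 for the IGCR1deleted line, 0 for bone marrow and 1 for CTCF-tag-only NT against parental NT with dispersed junctions only, and 1 for CTCF-tag-only cells with identical junctions counted once. Leaving out 1 replicate gave 0 to 2 calls for bone marrow and 0 to 1 for Rad21degron, CTCFdegron and CTCF-tag-only IAA against NT and for CTCFdegron and Rad21degron NT against parental NT. Bins of 500 kb gave 697 recurrent bins in place of 1060. Low totals limit the IAA groups of both Rad21degron lines most, where 3 junctions are 0.0539% and 0.0356% of the group.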

Other observations

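A few windows of 100000 bases held dispersed junctions in more replicates than the rest, and are named here after their values were seen. The window chr2:98500001-98600000, which holds Gm10800, had 21 dispersed junctions at 19 positions in 12 replicates of 9 groups. Windows on Y from 2800001 and on chromosome 11 from 3000001, which holds Sfi1, had 6 and 5 junctions, each in 5 replicates. No other window had them in more than 4 replicates. How uniquely reads align in these windows was not tested.

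Libraries lettered b had a higher share of junctions on other chromosomes than the a library of the same replicate in 35 of 42 replicates, and a higher share of dispersed junctions in 37 of 42, with median ratios of 1.27 and 1.25. What the letters stand for is not given in the labels. The IGCR1deleted Rad21degron line has only b libraries, so the letter is the same in its 2 groups.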
